A study of Sus scrofa with 4 samples.

Results

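The genes of respiratory complex I were examined in RNA-seq libraries of porcine oocytes matured in vitro with or without copper (Cu). Members were all rows with values whose gene symbol begins with NDUF, which gave 47 of 16050 genes. By symbol, 11 of them were core genes (NDUFS and NDUFV), 28 were accessory genes (NDUFA, NDUFB and NDUFC) and 8 were assembly factor genes (NDUFAF). The oocytes came from Sus scrofa females and were at metaphase II. The Control group was matured without added Cu and the Cu group with copper sulfate at 25 μg/mL, and culture lasted 44 h. Both groups were cultured as cumulus-oocyte complexes from slaughterhouse ovaries, in medium with follicular fluid, EGF, insulin, cysteine, hCG and eCG. Each library pooled 3 oocytes, the age of the animals is not given in the sources used here, and 4 libraries were analysed, named Control 1, Control 2, Cu 1 and Cu 3 after their labels. The methods describe 3 sets of oocytes in each group, so 1 set of each group was not analysed here. Paired Control values are given with Control 1 first. No source used here says which libraries shared animals, so the p-values measure the spread between these libraries, which may be technical.

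Complex I is the entry point of the mitochondrial respiratory chain. It takes electrons from NADH, passes them through a flavin and a row of iron-sulfur clusters to ubiquinone, and pumps protons across the inner membrane. Its core subunits carry the redox groups and the proton channels, and the subunits that form the channels are encoded in mitochondrial DNA. The accessory subunits surround the core and are needed for assembly and stability, and assembly factors act on the growing complex without remaining in it. The mitochondria of the oocyte are inherited by the embryo and supply most of the ATP used in meiotic maturation. The names of the genes follow biochemical fractions and not function. NDUFS4, NDUFS5, NDUFS6 and NDUFV3 encode accessory subunits in spite of their symbols, and NDUFA4 encodes a subunit now placed in complex IV.

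Levels are given as FPKM from the authors' table, that is, fragments per unit of transcript length and of library total. Levels of different genes are set side by side on this scale only. The methods describe reverse transcription with oligo dT and PCR amplification of the cDNA. The part of these steps in the levels was not tested. FPKM gives a gene's share of its library, and in such pools the number of oocytes that contributed RNA and the RNA per oocyte cannot be told apart. The depth of the libraries is unknown. Values summed to between 616082 and 672681 per library, and between 7923 and 9364 genes were at 1 FPKM or more, with the highest number in Cu 1. Cu 1 stood apart from the others, since Pearson's correlation of log2(FPKM + 1) over all 16050 genes was 0.954, 0.954 and 0.955 between Cu 1 and the other libraries, against 0.978 to 0.986 among those. Genes are not independent replicates. The labelled cell type was checked by its markers. All 14 oocyte markers listed (among them DPPA3, ZP2 and OOEP) had values, with sums of 7931 and 9068 FPKM in the Control libraries against 10547 in Cu 1 and 9547 in Cu 3. The 10 cumulus and granulosa markers with values summed to between 1.03 and 2.64 FPKM, and AMH and NR5A2 were listed at 0 in every library. The 6 markers of blood, immune and connective tissue cells with values summed to between 2.98 and 7.22 FPKM. Metallothioneins bind Cu and are often used as a mark of exposure to metal. MT1A had 5.97 and 7.0 FPKM in the Control libraries and 3.31 and 4.44 FPKM in the Cu libraries. MT3 lay the other way, with 8.1 and 1.91 FPKM in the Control libraries against 19.57 in Cu 1 and 9.87 in Cu 3, and the groups overlapped in MT1D. The metallothioneins thus had no common direction, and limma's adjusted p was above 0.05 for each of the 3 metallothionein genes with values. No gene in the table checks the labels directly, so each direction given here rests on the labels alone.

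Complex I transcripts differed widely in level within the oocyte. NDUFA1, a small membrane subunit needed for assembly (chromosome X, 98219717 to 98223873 in Sscrofa11.1), led in every library, with 702 and 714 FPKM in the Control libraries against 988 in Cu 1 and 1066 in Cu 3. NDUFA1, NDUFB5, NDUFB2, NDUFB1, NDUFA6, NDUFA4 and NDUFB9 were among the 10 most abundant members in all 4 libraries, and all 7 are accessory by symbol. NDUFB1, NDUFB2, NDUFB5 and NDUFB9 encode parts of the distal membrane arm. NDUFA6 belongs to a family of small proteins that bind the acyl carrier protein, as does NDUFB9. The order of the 47 members differed little between libraries. Spearman's rho over the members, which share each library's preparation, was 0.968 for the pair of Control libraries and 0.935 for the pair of Cu libraries, and lay between 0.875 and 0.973 across groups.

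**Figure D1:**
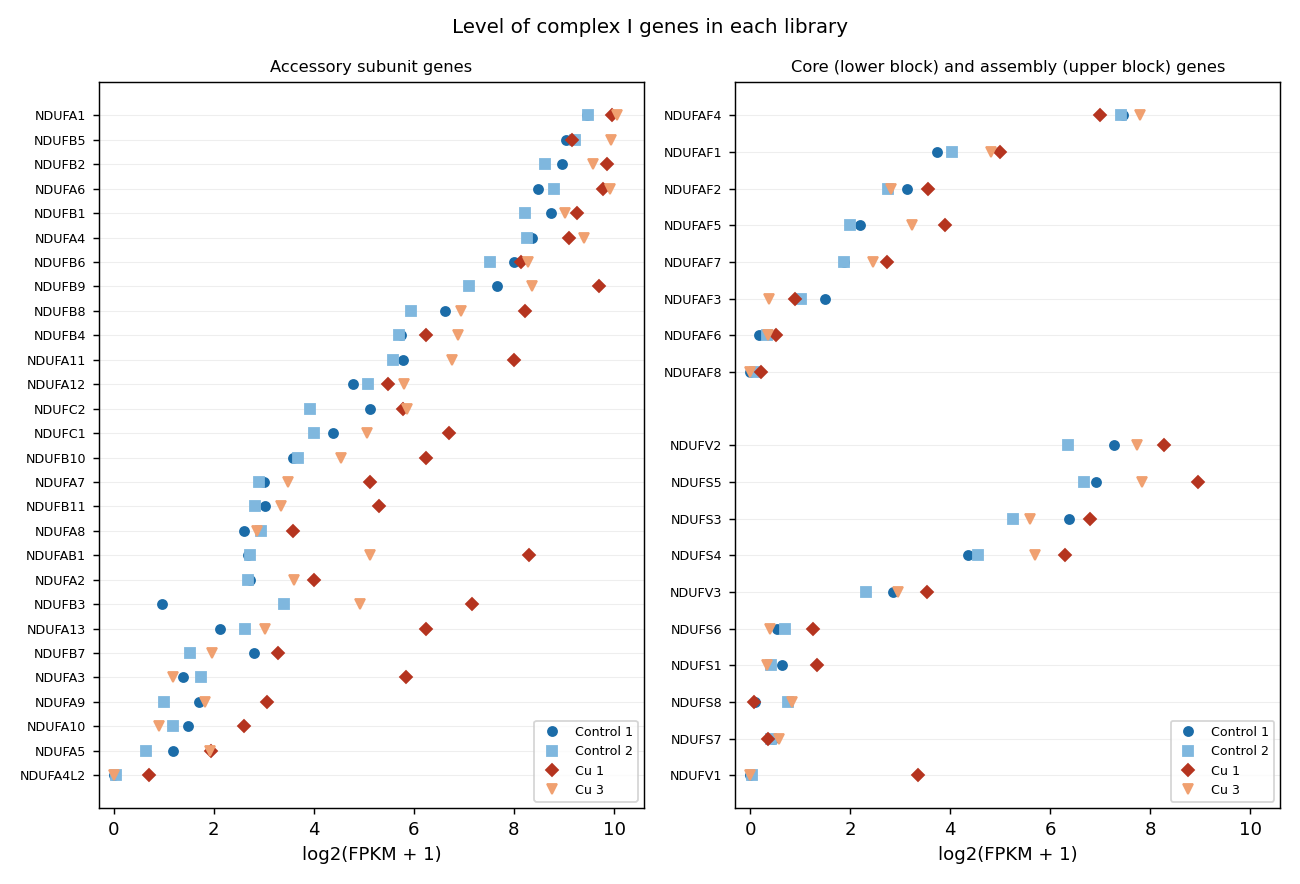
Level of 46 of the 47 complex I genes in each library, as log2(FPKM + 1) on the horizontal axis, with a symbol for each library and genes ordered by their mean in the Control libraries. Accessory genes are on the left, core (lower) and assembly (upper) genes on the right. NDUFA1 is at the top of the accessory genes, and NDUFV1 is near 0 in every library except Cu 1.

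Several core subunits that carry redox centres had low values, although NDUFV2, an iron-sulfur subunit, was among the 10 most abundant members in Control 1 and Cu 1. The core genes NDUFV1, NDUFS1, NDUFS7 and NDUFS8 did not reach 1 FPKM in at least 2 libraries, the condition for entering the test. NDUFV1 holds the flavin and binds NADH, and was listed at 0 in Control 1 and Cu 3, with 0.03 FPKM in Control 2 and 9.29 FPKM in Cu 1. A value above 0.03 FPKM was thus seen in Cu 1 alone. NDUFS1, which carries several of the iron-sulfur clusters, had 0.55 and 0.33 FPKM in the Control libraries against 1.53 in Cu 1 and 0.26 in Cu 3. NDUFS7 carries the last cluster before ubiquinone, and its values were 0.38 and 0.34 FPKM in the Control libraries against 0.29 in Cu 1 and 0.49 in Cu 3. NDUFS8, another iron-sulfur subunit, had 0.07 and 0.70 FPKM in the Control libraries against 0.06 in Cu 1 and 0.80 in Cu 3. In NDUFS7 and NDUFS8 every value was under 1 FPKM and the groups overlapped. NDUFV1 and NDUFS8 are the closest pair of members, on chromosome 2 (4958508 to 4964211 and 4863295 to 4867392), with 91115 bases between them. Whether other genes lie in this gap was not examined. NDUFS6, an accessory subunit that binds zinc, had 0.45 and 0.62 FPKM in the Control libraries against 1.38 in Cu 1 and 0.31 in Cu 3. The other members left out of the test were NDUFA4L2, NDUFAF6 and NDUFAF8, none of which reached 1 FPKM in any library. How precisely genes at such levels were measured is not known. The 7 complex I subunits encoded in mitochondrial DNA had no values under the symbols looked up for them, so they could not be analysed here.

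For the comparison of Cu with Control, 39 of the 47 members entered the test, namely 6 core, 27 accessory and 6 assembly genes. No tested member was under 1 FPKM in both Control libraries, and NDUFAF3 was under it in both Cu libraries. Higher values in the Cu libraries were the rule among them. The fitted difference, Cu minus Control on log2(FPKM + 1), is called the log2 difference here. Its median over the 39 genes was 1.03, against 0.16 for all 8541 genes tested, and 37 of the 39 were above 0 (64.3% of all tested genes). Over all 47 members, without the limit on low values, the median was 0.93 and 45 were above 0. A gene is called separated upward where the lower Cu value exceeded the higher Control value. This was so for 29 of the 39 genes (74.4%, against 25.4% of all tested genes), and 1 was separated downward (13.4% of all tested genes). An unadjusted p of 0.05 was reached by 19 of the 39 genes, all higher in Cu, where 5.58% of all tested genes were higher and 1.43% lower at this limit. With a log2 difference of 1.5 required as well, 8 of the 39 genes passed upward (20.5%, against 1.76% of all tested genes) and 0 passed downward (0.117%). After adjustment over all tested genes, limma called 0 members at 0.05, and none of the rest either (0%), the smallest adjusted p being 0.631. These genes were measured in the same 4 libraries, so the counts are not those of independent genes, and for 1 gene the smallest p of an exact permutation test (two-sided) is 0.333 with so few libraries.

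The count of 8 depended on single libraries. It was 7 without Control 1, 3 without Control 2, 2 without Cu 1 and 16 without Cu 3. When Cu 1 was left out, limma called 5 members at an adjusted p of 0.05, beside 2.18% of all tested genes, and when Cu 3 was left out 23 did, beside 20.5%. In these fits the lone Cu library is assumed to vary like the Control libraries. Among all tested genes, the share past both limits upward was 0.902% without Control 1 and 1.86% without Control 2. It was 1.19% without Cu 1 and 8.68% without Cu 3, so this share, too, was highest without Cu 3. The rise in the count was thus not limited to complex I. The median log2 difference of all tested genes was 0.12 without Control 1 and 0.21 without Control 2. It was 0.0023 without Cu 1 and 0.31 without Cu 3. The median of the 39 genes was 1.11, 0.81, 0.79 and 1.25 in the same order. Scaling of the libraries by the median of ratios and quantile normalization lowered the median of all genes by 0.21 and 0.23 (log2), and the complex I median stayed 0.91 and 0.88 above it, compared with 0.87 as deposited. After quantile normalization 15.9% of all tested genes were separated upward and 23.6% downward, while of the 39 members 27 were separated upward and 1 downward.

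**Figure D2:**
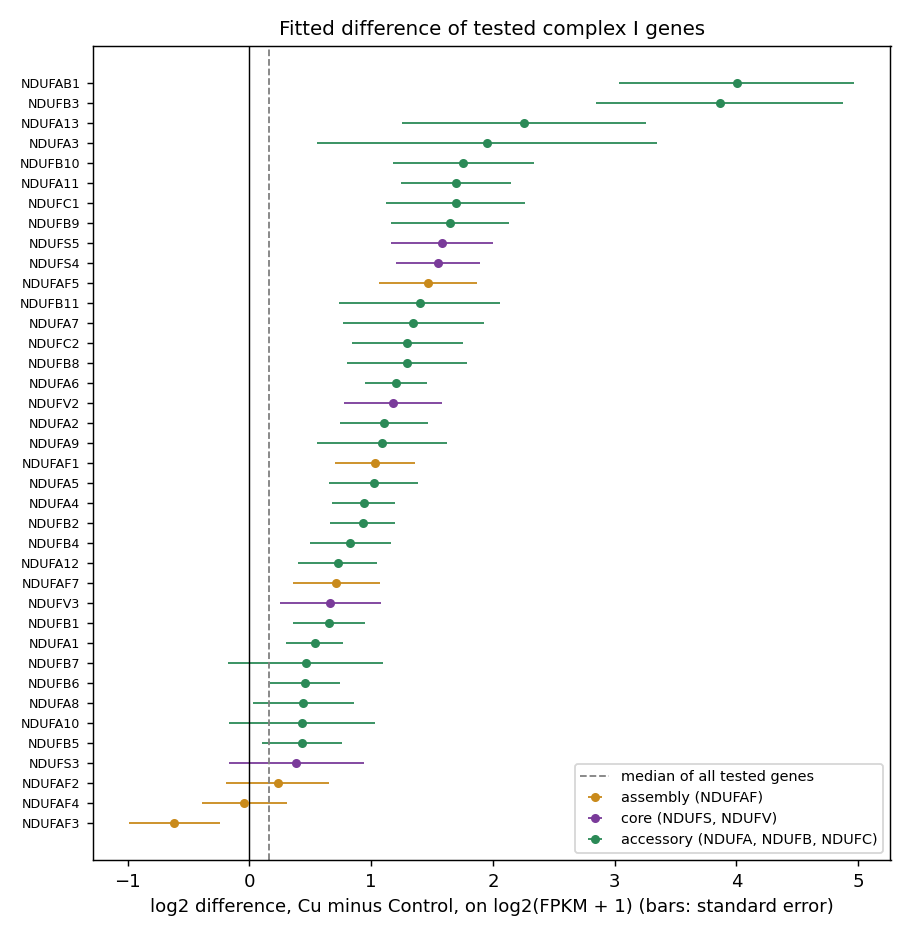
Log2 difference (Cu minus Control, on log2(FPKM + 1)) for 38 of the 39 tested complex I genes, with the standard error as bars, coloured by class, and the median of all tested genes (0.16) as a dashed line. NDUFAB1 and NDUFB3 lie highest, and NDUFAF3 and NDUFAF4 are the only genes below 0.

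For core genes by symbol the median was 0.92, and all 6 were above 0. NDUFS4, which stabilizes the NADH-oxidizing module (chromosome 16, 32874418 to 32985638), had 19.5 and 22.4 FPKM in the Control libraries against 77.8 in Cu 1 and 51.0 in Cu 3. The groups did not overlap, with a log2 difference of 1.55 (standard error 0.35), and limma's adjusted p was 0.631. An annotated pseudogene lies within the span of NDUFS4. NDUFS5, an accessory subunit of the membrane arm (chromosome 6, 94913406 to 94919458), had 120 and 102 FPKM in the Control libraries against 492 in Cu 1 and 226 in Cu 3. Its log2 difference was 1.59 (standard error 0.42), with Cu 1 more than 2-fold above Cu 3. NDUFV2, the iron-sulfur partner of NDUFV1, had 154 and 81.3 FPKM in the Control libraries against 307 in Cu 1 and 211 in Cu 3, a log2 difference of 1.18 (standard error 0.40). NDUFV3 had 6.23 and 3.97 FPKM in the Control libraries against 10.7 in Cu 1 and 6.74 in Cu 3. Its groups did not overlap either, but Cu 3 was close to Control 1, and the log2 difference was 0.67 (standard error 0.42).

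In NDUFS3 the 2 Cu libraries lay on opposite sides of the Control mean. NDUFS3, a core subunit of the arm that reaches into the matrix, had 81.9 and 37.0 FPKM in the Control libraries against 110 in Cu 1 and 47.4 in Cu 3, with Cu 3 between the Control libraries and a log2 difference of 0.39 (standard error 0.55). Without Cu 1 the log2 difference of NDUFS3 was -0.21. If the classes are drawn by established role instead of symbol, 3 core genes remain in the test, with a median lower than 0.92 by more than 1.5 times, and there are 29 accessory genes, with a median of 1.2.

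For accessory genes the median was 1.11, all 27 were above 0, and 22 were separated upward (81.5%, against 25.4% of all tested genes). The highest fold changes were those of NDUFAB1 and NDUFB3, both named by the study from this experiment and so no independent evidence of a direction. The study describes both as downregulated in Cu-exposed oocytes, by RNA-seq and by quantitative PCR, opposite to the direction of the values here. The study reports NDUFA13 and the ATP synthase gene ATP5PF likewise. ATP5PF had 119 and 86.0 FPKM in the Control libraries against 309 in Cu 1 and 771 in Cu 3, also higher in Cu. The reason was not tested. NDUFAB1, the mitochondrial acyl carrier protein (chromosome 3, 22619458 to 22631575), stood at the 43.8th and 41.9th percentile of tested genes in Control 1 and 2, and at the 96.1st and 78.4th percentile in Cu 1 and Cu 3. Its FPKM were 5.46 and 5.59 in the Control libraries and 312 and 33.9 in Cu 1 and Cu 3, a log2 difference of 4.0 (standard error 0.96). NDUFB3, a subunit of the distal membrane arm (chromosome 15, 104747835 to 104759137), stood at the 7.08th and 54.4th percentile in Control 1 and 2 and at the 92.3rd and 76.3rd in Cu 1 and Cu 3. With 0.95 and 9.64 FPKM in Control 1 and 2, its Control libraries were farther apart on the log2 scale (2.45) than its Cu libraries with 143 and 29.5 FPKM (2.24). The log2 difference of NDUFB3 was 3.86 (standard error 1.01). NDUFAB1 was past both limits (unadjusted p of 0.05 and log2 difference of 1.5) in all 11 settings of the test, and NDUFB3 in all 10 settings it entered. Each of the other 6 genes missed them in at least 3 settings.

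The remaining accessory genes past both limits were NDUFB10, NDUFA11, NDUFC1 and NDUFB9, all of them parts of the membrane arm. NDUFB10 (chromosome 3, 40003109 to 40005650) had 11.04 and 11.78 FPKM in the Control libraries against 74.4 in Cu 1 and 22.3 in Cu 3, a log2 difference of 1.76 (standard error 0.58). Its annotated span overlaps RPL3L over 744 bases and RPS2 over 2 bases. NDUFA11, which touches complex III in respiratory supercomplexes (chromosome 2, 73131029 to 73137921), had 54.4 and 46.9 FPKM in the Control libraries against 255 in Cu 1 and 108 in Cu 3. The log2 difference of NDUFA11 was 1.70 (standard error 0.45). NDUFC1 (chromosome 8, 87695273 to 87700024) had 19.7 and 14.9 FPKM in the Control libraries against 103 in Cu 1 and 32.4 in Cu 3, a log2 difference of 1.69 (standard error 0.57). NDUFB9 (chromosome 4, 15105305 to 15113281) had 201 and 136 FPKM in the Control libraries against 825 in Cu 1 and 327 in Cu 3, a log2 difference of 1.65 (standard error 0.49). In these 4 genes Cu 1 was more than 2-fold above Cu 3, and Cu 3 exceeded either Control library.

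In several accessory genes the difference rested on Cu 1. NDUFA13, also known as GRIM-19 and named by the study from this experiment, had 3.37 and 5.15 FPKM in the Control libraries against 74.5 in Cu 1 and 7.10 in Cu 3. Its log2 difference of 2.25 (standard error 1.0) became 0.64 without Cu 1. The study describes NDUFA13 as downregulated in Cu-exposed oocytes, by RNA-seq and by quantitative PCR, opposite to the sign of both values. NDUFA3, chosen after its values were seen, had 1.60 and 2.35 FPKM in the Control libraries against 56.5 in Cu 1 and 1.27 in Cu 3. Cu 3 was the lowest library for NDUFA3 and Cu 1 was far above the rest, so that the log2 difference of 1.95 (standard error 1.39) turned to -0.38 without Cu 1. NDUFA10 and NDUFB7, with log2 differences of 0.43 and 0.46, also became negative without Cu 1 (-0.42 and -0.19). The smallest difference among accessory genes was that of NDUFB5, with 522 and 594 FPKM in the Control libraries against 573 in Cu 1 and 982 in Cu 3. The groups overlapped in NDUFB5, where Cu 1 lay between the Control libraries, and the log2 difference was 0.43 (standard error 0.33).

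Some of the most abundant accessory genes had close values in both Cu libraries. NDUFA6 had 358 and 445 FPKM in the Control libraries against 875 in Cu 1 and 971 in Cu 3, a log2 difference of 1.2 with the second smallest standard error of the 39 genes (0.26). NDUFA4, the complex IV subunit, had 327 and 306 FPKM in the Control libraries against 548 in Cu 1 and 676 in Cu 3. RefSeq lists an NDUFA4 pseudogene as well, so reads of NDUFA4 may be shared with it. NDUFA1 and NDUFB1 were separated upward in the libraries by less, with log2 differences of 0.54 and 0.65. The authors' means of the groups, which pool each group, were lower in Cu for both genes. In NDUFA1 and NDUFB1 the Control mean lies above both Control libraries and the Cu mean below both Cu libraries, so the means rest on more than the 4 libraries analysed and are not matched to them. They were 954 for Control and 903 for Cu in NDUFA1, and 647 for Control and 472 for Cu in NDUFB1. Such a mismatch was not limited to these genes. In NDUFA4 and NDUFS5 the Control mean (453 and 150) also lay above both Control libraries, with Cu means of 553 and 287. Separation upward thus describes the 4 libraries analysed and not all sets of the study. By the authors' means 34 of the 39 members were higher in Cu, beside 62.0% of all tested genes.

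**Figure D3:**
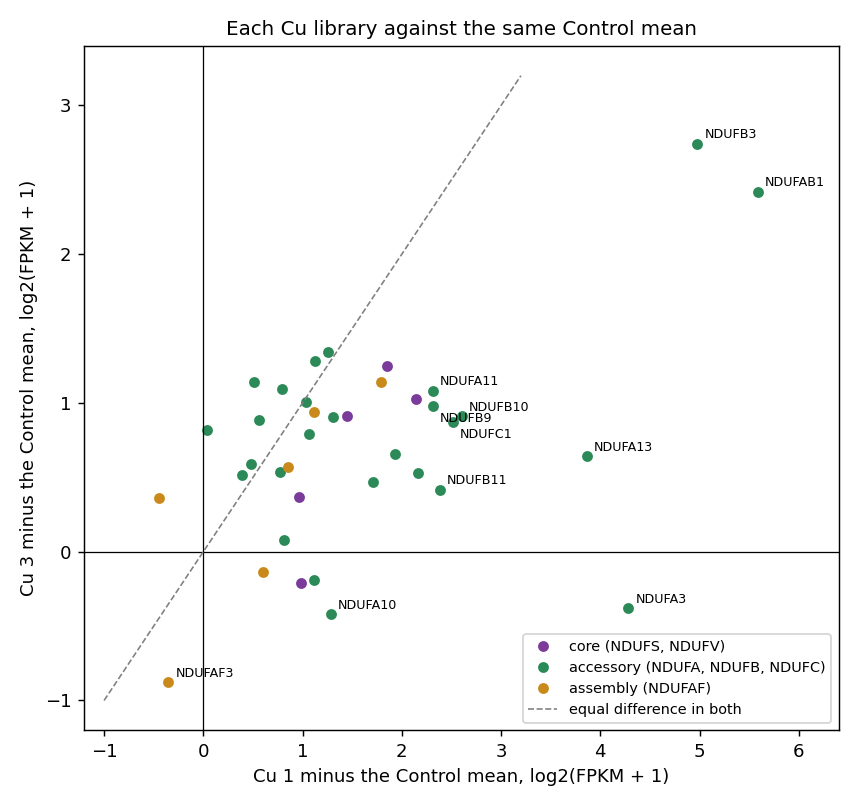
Difference of Cu 1 (horizontal axis) and of Cu 3 (vertical axis) from the same mean of the Control libraries, in log2(FPKM + 1), for 38 of the 39 tested complex I genes, coloured by class; the dashed line marks equal differences. Most points lie right of the line, and NDUFA3 is above 0 in Cu 1 and below 0 in Cu 3.

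The Cu libraries differed from each other in many complex I genes. Cu 1 was above Cu 3 in 30 of the 39 members (65.7% of all tested genes) and at least 2-fold above it in 17, while Cu 3 was 2-fold above Cu 1 in 0. A distance of 2-fold or more between the Cu libraries was found in 24.7% of all tested genes, and between the Control libraries in 4 of the 39 members and 4.75% of all tested genes. Against the same Control mean, the median difference of the 39 genes was 1.25 in Cu 1 and 0.79 in Cu 3, compared with 0.31 and 0.0023 for all tested genes. Cu 3 was above the Control mean in 32 of the 39 members (50.3% of all tested genes). Among the 7 exceptions were NDUFA3, NDUFA10, NDUFB7, NDUFS3, NDUFAF2 and NDUFAF3. Complex I genes held 0.646% and 0.618% of all FPKM in Control 1 and 2 and 1.28% and 1.05% in Cu 1 and Cu 3. The part of the number of genes detected in Cu 1 in these differences was not tested.

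For assembly factor genes the median was 0.47, with 4 of 6 above 0 (64.3% of all tested genes). An unadjusted p of 0.05 was reached by 2, both higher in Cu (5.58% of all tested genes). Past both limits upward were 0 (1.76% of all tested genes). The median was 0.20 after quantile normalization, 0.26 after scaling by the median of ratios and 0.21 with all 8 genes fitted. NDUFAF5, an enzyme that modifies NDUFS7 (chromosome 17, 22480344 to 22508804), had 3.56 and 3.01 FPKM in the Control libraries against 13.8 in Cu 1 and 8.41 in Cu 3, a log2 difference of 1.47 (standard error 0.40). NDUFAF1 acts in the assembly of the membrane arm, and had 12.4 and 15.3 FPKM in the Control libraries against 31.1 in Cu 1 and 27.3 in Cu 3, a log2 difference of 1.03 (standard error 0.33). Its span overlaps NUSAP1 over 738 bases. NDUFAF7 is a methyltransferase that acts on a core subunit and had 2.66 and 2.69 FPKM in the Control libraries against 5.64 in Cu 1 and 4.46 in Cu 3, a log2 difference of 0.71 (standard error 0.36). The span of NDUFAF7 overlaps PRKD3 over 10161 bases. The groups did not overlap in NDUFAF1, NDUFAF5 and NDUFAF7, which were separated upward (50% of the tested assembly genes, against 25.4% of all tested genes).

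The other 3 assembly factors had another pattern. NDUFAF4, the most abundant assembly factor gene, which works with NDUFAF3 on the ubiquinone module (chromosome 1, 64038277 to 64044824), had 175 and 169 FPKM in the Control libraries against 126 in Cu 1 and 222 in Cu 3. The Control libraries lay between the Cu libraries, and the log2 difference was -0.040 (standard error 0.35). NDUFAF3 itself had 1.81 and 1.03 FPKM in the Control libraries against 0.87 in Cu 1 and 0.30 in Cu 3, a log2 difference of -0.62 (standard error 0.37). NDUFAF3 was the only tested member separated downward, at levels near 1 FPKM. NDUFAF2, a relative of the subunit NDUFA12, had 7.84 and 5.76 FPKM in the Control libraries against 10.7 in Cu 1 and 6.04 in Cu 3, with overlapping groups and a log2 difference of 0.23 (standard error 0.42). NDUFA12 had 26.4 and 32.7 FPKM in the Control libraries against 43.9 in Cu 1 and 55.1 in Cu 3. NDUFAF6 ranged from 0.13 to 0.44 FPKM and NDUFAF8 from a listed 0 to 0.16 FPKM.

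**Figure D4:**
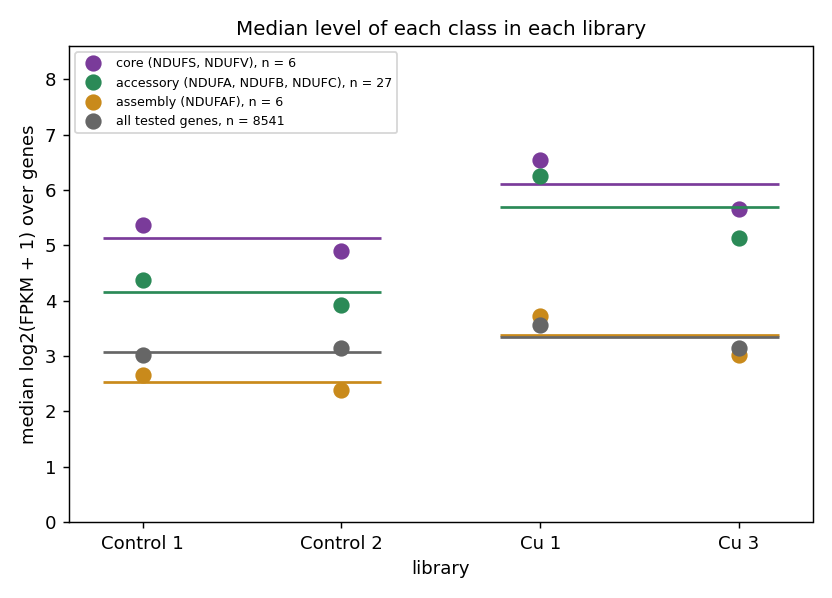
Median log2(FPKM + 1) of core, accessory and assembly genes that entered the test and of all 8541 tested genes in each library, with lines for the mean of each group. In each of the 3 classes the Cu medians lie above the Control medians, with Cu 1 above Cu 3.

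In per-library terms, the accessory genes tested had median log2(FPKM + 1) levels of 4.37 and 3.92 in Control 1 and 2 and 6.24 and 5.12 in Cu 1 and Cu 3. The assembly factor genes had 2.67 and 2.38 in the Control libraries and 3.72 and 3.02 in Cu 1 and Cu 3, and all tested genes had 3.02 and 3.14 in the Control libraries and 3.56 and 3.14 in Cu 1 and Cu 3. The difference between the classes was not tested, because members of a class are not replicates. Of all tested genes 25.4% were separated upward, the share to set beside the small counts that follow. By position in the complex, the N module (which oxidizes NADH) had 7 tested genes of 10, all separated upward, and a median log2 difference of 1.18. The Q module (which reduces ubiquinone) had 4 tested genes of 6 with a median of 0.76, and 2 of the 4 were separated upward. Its median level was 2.32 and 2.24 in Control 1 and 2, 4.06 in Cu 1 and 2.14 in Cu 3, so that Cu 3 was not above the Control libraries. The proximal membrane arm had 9 genes with a median of 1.59, of which 6 were separated upward, and the distal membrane arm had 11 genes with a median of 0.93, of which 9 were.

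At each range of levels the members lay above other genes in their median. Members with a mean of 10 to 100 FPKM over the 4 libraries (15 genes) had a median log2 difference of 1.40, beside 0.081 for all genes at that level. The 13 members at 100 FPKM or more had a median of 0.94, beside 0.048, and the 11 members under 10 FPKM had 0.67, beside 0.22. The pseudocount makes the differences of the last group smaller.

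Assembly of complex I also needs factors without an NDUF symbol, of which a list of 14 was examined. Values were given for 13 and 10 entered the test, all with a log2 difference above 0 and a median of 0.44. An unadjusted p of 0.05 was reached by 2, both higher in Cu (5.58% of all tested genes). Separated upward were 4 (40%, against 25.4% of all tested genes). TMEM126A had 7.83 and 19.3 FPKM in the Control libraries against 28.8 in Cu 1 and 43.7 in Cu 3, a log2 difference of 1.45 (standard error 0.50). LYRM2 had 7.26 and 8.24 FPKM in the Control libraries against 16.8 in Cu 1 and 21.8 in Cu 3, a log2 difference of 1.2 (standard error 0.35). TMEM126B, which acts with NDUFAF1 in the membrane arm, had 28.5 and 30.0 FPKM in the Control libraries against 38.6 in Cu 1 and 22.9 in Cu 3, with overlapping groups. For other parts of the chain, the median was 0.17 for 6 tested genes of complex II and 1.53 for 6 genes of complex IV. Of these, 1 and 5 reached an unadjusted p of 0.05, all upward (5.58% of all tested genes). The 17 tested genes of ATP synthase had a median of 0.98, close to that of complex I, with 9 at this limit, all upward. Among them 11 were separated upward (64.7%, against 25.4% of all tested genes). Values were given for only 6 of the 16 complex IV symbols listed and 2 of the 9 of complex III. These medians thus cover a part of each complex. Both complex III genes entered the test, with a median of 1.79.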

How the data were processed

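The 4 RNA-seq libraries of mature porcine oocytes analysed here are part of the 3 sets per group that the methods describe, and groups and replicate numbers come from the labels. The methods describe SOAPnuke, HISAT2, Bowtie2 and RSEM, while the submitters' processing notes name TopHat2 2.0.13, Cufflinks 2.2.1, Cuffnorm, Cuffdiff and the build Sscrofa11.1, and which of them made the table is not stated. The authors deposited FPKM rounded to 2 decimals, with a mean FPKM of each group, which is printed only as the authors' mean. Depth and read counts are unknown, so the study's count-based test was not used, and no floor or interval for counting error is given. Genes that reached 1 FPKM in 2 or more libraries were put on the log2(FPKM + 1) scale and fitted with limma 3.58.1 in R 4.3.3 (lmFit, eBayes with a variance trend, Benjamini-Hochberg over 8541 genes), after a check on simulated data. Fold changes are on this log2 scale. Genes were also counted at an unadjusted p of 0.05 combined with a difference of 1.5 on that scale. All 47 gene identifiers matched the RefSeq table of Sscrofa11.1, the source of the coordinates, which are whole gene spans. Of the 47 genes, 12 overlap another annotated gene, and the strand setting of the counting is not given in the sources used here. Printed with the value in every library were all tested core and assembly genes, the accessory genes past both limits, those with the largest and smallest fold change and the 3 named by the study; others are marked or given in brief. For 1 gene single values are not reported here, while counts and medians include it. Members, lists and tests were chosen with earlier results of these data known. Alternatives were the pseudocount, the filter on low values, the scaling, the variance trend, the fold change limit, the class of a gene and each library left out; the authors' means were added after seeing the data.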

Additional observations from a re-analysis of the deposited data

How the results depend on the processing

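The median log2 difference of the members was above 0 in each of the 10 alternative fits, between 0.79 and 1.25. These fits held 39 members, except 47 with no filter on low values and 35 with 1 FPKM required in every library. By the authors' means, added after seeing the data, the median of the 39 genes was 0.71. After scaling by the median of ratios, 1.25% of all tested genes were past both limits upward, the share to set beside the count that follows. No such share is given for the log2 limit of 1, so the count at that limit has no comparison. The number of genes higher in Cu past both limits was 4 after scaling by the median of ratios and 16 at a log2 limit of 1, and with each library left out it ranged from 2 to 16. Over these, genes that limma called at an adjusted p of 0.05 ranged from 0 to 23, genes with both Cu libraries below both Control libraries from 1 to 4, and the core median from 0.64 to 1.65. The core median was below this range, and lower than 0.92 by more than 1.5 times, with no filter on low values and by established role, but stayed above 0. With 1 FPKM required in every library, 0 members had both Cu libraries below both Control libraries, because NDUFAF3 is then left out. Of all genes tested in that setting, 14.5% had this order. With each library left out, the share of all tested genes with this order ranged from 19.5% (without Control 2) to 37.1% (without Cu 1). In those fits 1 group had a single library, which was set against both libraries of the other group. The sign was reversed for NDUFAF2 after quantile normalization (-0.035), and by the authors' means for NDUFA1 (-0.080), NDUFB1 (-0.45) and NDUFAF2 (-0.32). With each library left out, the log2 difference ranged from -0.42 to 1.28 for NDUFA10, from -0.38 to 4.28 for NDUFA3, from -0.14 to 0.60 for NDUFAF2, from -0.44 to 0.36 for NDUFAF4, from -0.19 to 1.12 for NDUFB7 and from -0.21 to 0.99 for NDUFS3. The cause of these changes was not tested. No paired analysis was possible because the groups share only 1 replicate number. Depth is unknown, which limits what can be said of genes near or under 1 FPKM.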
